A study of Mus musculus with 12 samples.

Results

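The genes described here were 10 members of the Wnt pathway: 6 genes for secreted ligands (Wnt5a, Wnt5b, Wnt6, Wnt7b, Wnt10a and Wnt11), the secreted inhibitor Sfrp1, the receptor Lgr5, and Axin2 and Lef1, which act inside the cell. They were taken by name from the expression tables, and all 10 were found in every sample, among 23301 gene names that the tables of both experiments shared. The 12 RNA-seq samples came from 2 experiments on mammary tissue of female mice aged 12 weeks, with 3 replicates in each of 4 groups. Normal tissue was taken from FVB wild type mice, with the abdominal and inguinal glands of 3 animals mixed in every replicate. Each Tumor replicate was a thoracic gland tumor of 1 untreated MMTV-PyVT mouse, a strain in which the mouse mammary tumor virus promoter drives the polyoma virus middle T oncogene in the mammary epithelium. The DMSO and C646 replicates were the biggest tumors of other MMTV-PyVT mice, 1 per mouse, after intraperitoneal injections of the solvent DMSO or of C646, an inhibitor of the histone acetyltransferase p300. The labels give a dose of 1 mg/kg for both. Expression was given as FPKM, a level already divided by transcript length and by library size, so levels of different genes can be compared within a sample.

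Wnt proteins are lipid-modified ligands that bind Frizzled receptors together with co-receptors of the Lrp, Ror or Ryk families. In the canonical branch the signal blocks the complex of Axin, Apc and Gsk3 that destroys beta-catenin, which then enters the nucleus and turns on target genes with factors of the TCF/LEF family. Other branches, for which Wnt5a, Wnt5b and Wnt11 are best known, act on cell shape and movement without beta-catenin. In the mammary gland the pathway is known for its part in the growth of the ducts and the upkeep of the basal stem cells, and the mouse mammary tumor virus was the agent that first led to the Wnt genes.

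The tissue labels were held against marker genes before the members were examined. The summed FPKM of 8 luminal epithelial markers was 473.8 to 997.9 in Normal and 3414 to 4608 in Tumor samples, and 3143 to 3960 in the 6 injected tumors. Normal samples also held adipocyte markers at 25510 to 32140 FPKM in sum and T cell markers at 215 to 291. In Tumor samples the same sums were 119.5 to 2432 for adipocytes and 0.721 to 2.11 for T cells, and the defining T cell marker Cd3e was at or under 0.170 FPKM. Skeletal muscle markers summed to 10.6 to 81.6 in Normal and 1539 to 4364 in Tumor samples. All 5 proliferation markers were called higher in tumors, with sums of 11.9 to 30.6 in Normal and 78.0 to 124.9 in Tumor samples, and 4 of 6 macrophage markers were called lower, with overlapping sums of 384.2 to 537.0 and 219.5 to 433.1. The part of these cell types in the members' differences was not tested. In whole tissue, fewer cells of a type and less RNA per cell cannot be told apart, and Normal and Tumor samples differ at once in tissue, in the position of the gland and in how many mice a replicate holds, which cannot be told apart either.

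The first comparison asked how the Wnt genes differed between normal mammary tissue and tumors. Wnt5b and Sfrp1 were higher in the tumors, and Wnt10a, Wnt11 and Lef1 were lower, by limma with Benjamini-Hochberg adjusted p under 0.05. Lef1 changed most, to a mean FPKM 43.4 times lower. Wnt5a and Wnt7b did not pass, nor did Wnt6 and Axin2, for which Tumor 2 lay far above the other tumors. Lgr5 stayed under 1 FPKM in every sample. Of the 10 members, 9 passed the filter, which asked for 1 FPKM or more in 3 or more samples of the comparison. Among those, 2 were called higher, against 28.8% of all 13031 genes tested, and 3 were called lower, against 31.7%, so neither count stood far from that of all genes.

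**Figure D1:**
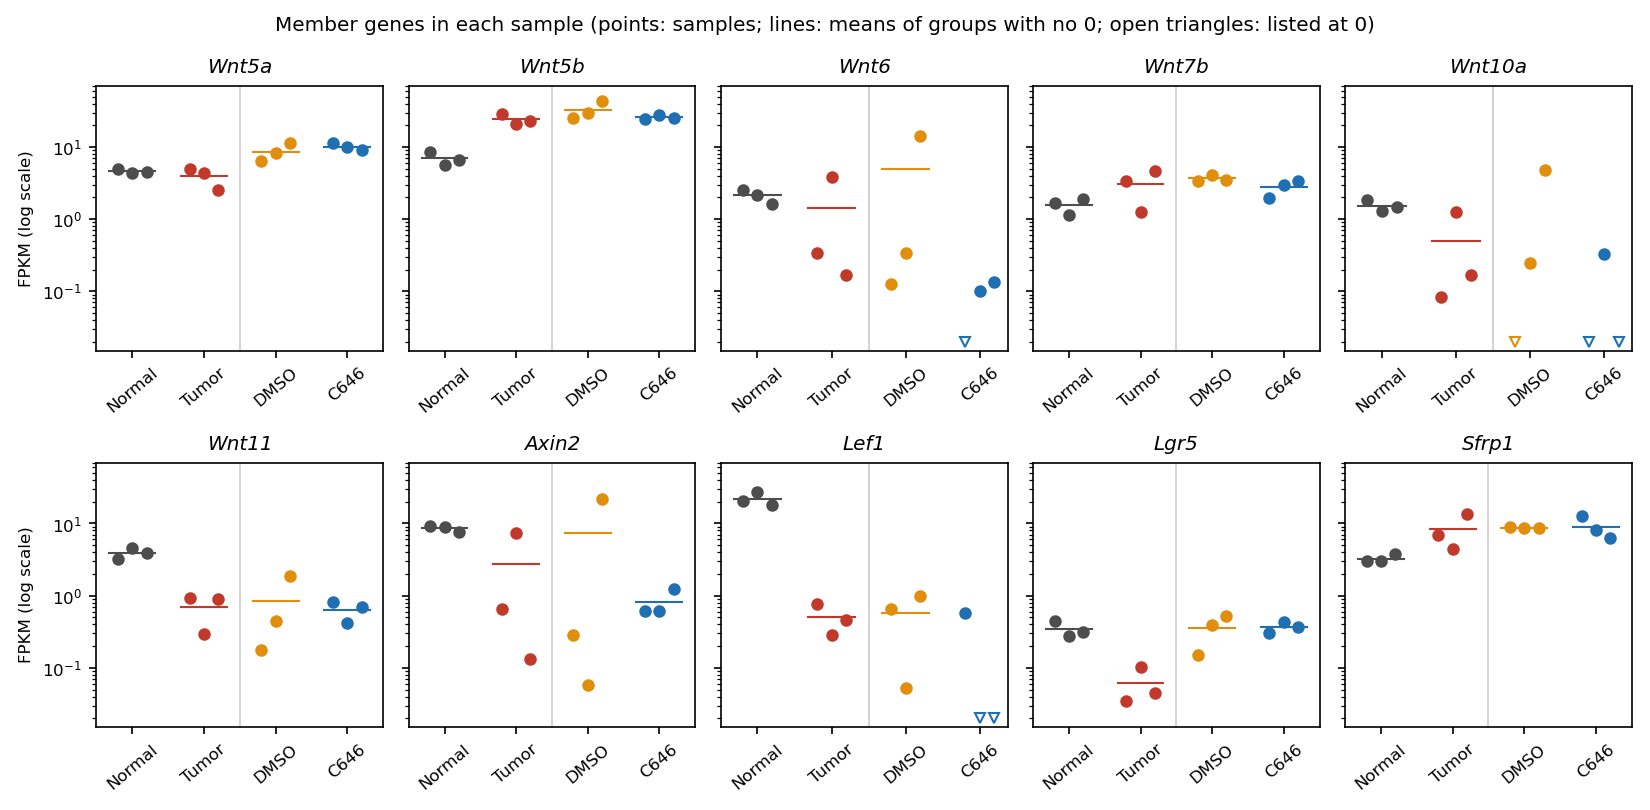
FPKM on a log axis for each of the 10 genes in the 12 samples, by group; points are samples, lines are the means of groups with no value of 0, and open triangles are values listed at 0. The Wnt5b points of the 3 Tumor samples sit between 21.1 and 28.4, all above the Normal points, while Lef1 drops from 18.1 to 27.5 in Normal to under 1 in Tumor samples. In Wnt6, Wnt10a and Axin2 a single point stands high in both the Tumor and the DMSO group.

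Wnt5b, a ligand of the branch without beta-catenin, was the Wnt gene with the highest level in all 12 samples. Its FPKM was 8.58, 5.61 and 6.68 in the Normal replicates and 28.4, 21.1 and 22.7 in the Tumor replicates. The groups lay far apart, with the lowest tumor above the highest normal sample. The mean rose from 6.95 ± 1.50 (SD, n = 3) to 24.1 ± 3.85 (SD, n = 3), a log2 fold change of 1.80 (SE 0.20, limma adjusted p = 0.000288).

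Its close relative Wnt5a gave another picture. The Normal replicates had 4.88, 4.40 and 4.50 FPKM and the Tumor replicates 4.88, 4.38 and 2.52. Tumors 1 and 2 lay within the range of the normal samples or just under it, and Tumor 3 lay lower. The estimated log2 fold change was -0.28 with a 95% interval of -0.91 to 0.35 (limma adjusted p = 0.398), so no difference was detectable among these samples. The ratio of the group means was 0.855 for Wnt5a and 3.46 for Wnt5b.

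Wnt7b, a ligand of the canonical branch that luminal cells can make, was at 1.65, 1.15 and 1.91 FPKM in Normal and at 3.42, 1.25 and 4.64 in Tumor samples. Tumors 1 and 3 lay above all normal samples, and Tumor 2 lay among them. Its log2 fold change of 0.81 had a 95% interval of -0.34 to 1.96 and an adjusted p of 0.190. Without Tumor 2 it was 1.36, with an adjusted p of 0.00938 in a range of 0.00938 to 0.486 over the alternatives.

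Wnt11, which works mostly outside the beta-catenin branch, fell. Its FPKM was 3.24, 4.62 and 3.94 in the Normal and 0.939, 0.296 and 0.885 in the Tumor replicates, and the groups did not overlap. The mean was 3.93 ± 0.687 (SD, n = 3) against 0.707 ± 0.357 (SD, n = 3), with a log2 fold change of -2.57 (SE 0.45, limma adjusted p = 0.00216). The call held in all 12 alternatives.

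Wnt6 and Wnt10a, both ligands of the canonical branch, are neighbours in the genome. In mm10 Wnt6 lies at chr1:74771892-74785322 and Wnt10a at chr1:74791516-74804179, both on the plus strand, with 6193 bases and no start of another annotated gene between them. Wnt6 was at 2.56, 2.18 and 1.65 FPKM in Normal, and at 0.334, 3.80 and 0.166 in Tumor samples. Wnt10a was at 1.84, 1.28 and 1.46 in Normal, and at 0.0845, 1.24 and 0.166 in Tumor samples. For both genes Tumors 1 and 3 were low and Tumor 2 was high, above every normal sample for Wnt6 and just under the lowest for Wnt10a.

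Wnt10a was called lower, with a log2 fold change of -2.33 (SE 0.85, limma adjusted p = 0.0469), close to the threshold. The call was lost in 8 of 12 alternatives, among them 5 of the 6 fits that left out 1 sample, where only the fit without Tumor 2 kept it. For Wnt6 the log2 fold change was -1.71 with a 95% interval of -4.08 to 0.67 (adjusted p = 0.180). Without Tumor 2 it was -2.98, with an adjusted p of 0.00151 in a range of 0.00151 to 0.467 over the alternatives. The deposited tables carry no strand, and an antisense transcript annotated within Wnt6 could share its reads.

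Of the whole family, 19 Wnt genes were listed and 10 passed the filter in Normal and Tumor samples. Besides Wnt5b, which was higher, 4 of the 10 were lower: Wnt2, Wnt4, Wnt10a and Wnt11. Over all genes tested, 28.8% were called higher and 31.7% lower. The median log2 fold change of the 10 was -1.88, against -0.02 over all genes tested. Wnt2, Wnt4, Wnt10b and Wnt11 reached 1 FPKM in no Tumor sample and passed the filter through Normal alone. The filter thus favours a low median, and no shift of the family is read from it. Wnt2, a ligand of the mammary stroma, fell from 4.52 ± 0.996 to 0.170 ± 0.0597 FPKM (SD, n = 3), a log2 fold change of -4.52 (limma adjusted p = 7.6e-05). Wnt4, the ligand that luminal cells release in response to progesterone, fell from 3.18 ± 0.592 to 0.354 ± 0.131 FPKM (SD, n = 3), a log2 fold change of -3.09 (adjusted p = 0.000279). The fibroblast and hormone-sensing luminal markers moved with them. Of 6 fibroblast markers 5 were lower, with a summed level of 1759 to 1889 FPKM in Normal and 243.0 to 537.0 in Tumor samples. Of 5 hormone-sensing markers tested 4 were lower, with sums of 215.3 to 248.2 and 61.8 to 88.5. Ly6a alone, at 184.7 to 227.0 in Normal and 57.1 to 81.3 in Tumor samples, made up most of the hormone-sensing sums. The part of these cell types in the ligand results was not tested.

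The sum over the 19 ligands differed little between the groups while its makeup changed. It was 35.0, 30.0 and 30.2 FPKM in Normal and 40.7, 34.3 and 33.0 in Tumor samples, so that the ranges overlapped. Wnt5b alone made up 18.7% to 24.5% of the sum in Normal and 61.6% to 69.9% in Tumor samples. Ligands at 1 FPKM or more numbered 10 in each Normal sample and 3 to 5 in the Tumor samples.

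**Figure D2:**
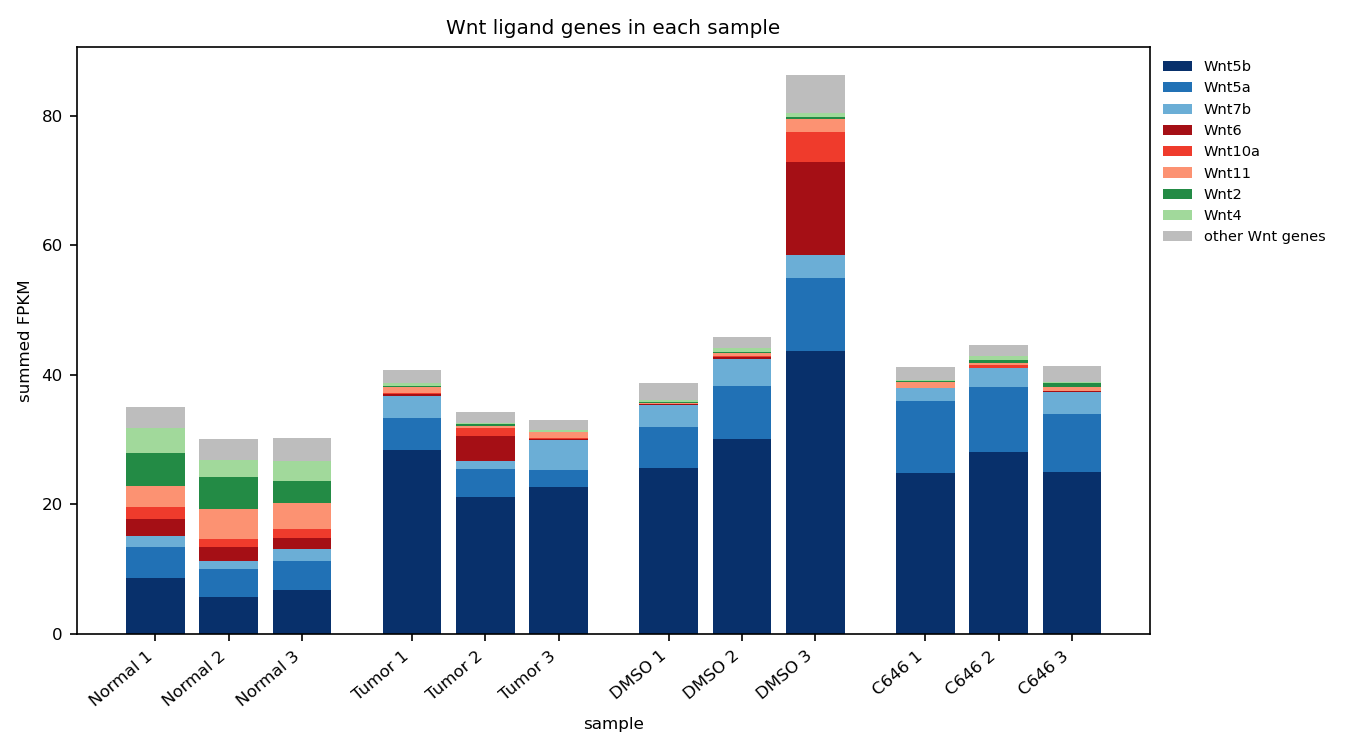
Summed FPKM of the 19 Wnt ligand genes in each of the 12 samples, with 8 ligands in colour and the others in grey. Normal bars are split among many ligands, tumor bars are mostly Wnt5b (dark blue), and the bar of DMSO 3 reaches 86.3 with 16.6% from Wnt6 (dark red).

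The secreted inhibitor Sfrp1 keeps Wnt ligands from their receptors, and it is best known in human breast tumors as a gene that is silenced. Here it was at 3.01, 3.03 and 3.75 FPKM in Normal and at 6.93, 4.36 and 13.6 in Tumor samples, with no overlap. The mean rose from 3.26 ± 0.422 to 8.30 ± 4.77 FPKM (SD, n = 3), a log2 fold change of 1.19 (SE 0.39, limma adjusted p = 0.0317). The call was lost in 5 of the 6 fits that left out 1 sample, with adjusted p between 0.051 and 0.088, and was kept in the fit without Tumor 2.

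Of 13 secreted inhibitors 7 passed the filter. Sfrp1 was called higher and Sfrp2, Sfrp4, Sfrp5 and Wif1 were called lower, against 31.7% of all genes called lower, while Dkk3 (log2 fold change -0.42, adjusted p = 0.239) and Sostdc1 (-0.35, adjusted p = 0.625) did not pass. Sfrp4, an inhibitor made by stromal cells, fell from 14.1 ± 4.42 to 1.04 ± 0.659 FPKM (SD, n = 3), with a log2 fold change of -3.98 (limma adjusted p = 0.00121). Sfrp5, of the same family and known from fat tissue, fell from 3.90 ± 2.14 to 0.346 ± 0.190 (SD, n = 3), with a log2 fold change of -3.35 (adjusted p = 0.00113). Wif1 binds Wnt ligands directly, and it fell from 4.02 ± 0.931 to 0.982 ± 0.725 (SD, n = 3), with a log2 fold change of -2.26 (adjusted p = 0.0104). All 8 adipocyte markers and 5 of 6 fibroblast markers were lower too, and their part in this was not tested.

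Lgr5, a receptor for R-spondins and a stem cell marker that is itself a Wnt target, was nearly silent in these tissues. It was at 0.444, 0.280 and 0.313 FPKM in Normal and at 0.0346, 0.103 and 0.0450 in Tumor samples. The groups did not overlap, but Lgr5 did not pass the filter. The fit over all genes without a filter gave a log2 fold change of -2.08 (SE 0.48, limma adjusted p = 0.00908), and the exact permutation test gave p = 0.1, the smallest that 3 samples against 3 allow. Its relatives were expressed well above it: Lgr4 was at 4.57 ± 1.31 in Normal and 12.8 ± 2.68 in Tumor samples, and Lgr6 at 2.57 ± 1.09 and 11.2 ± 3.90 FPKM (SD, n = 3). Both were higher in tumors, with limma adjusted p of 0.002 and 0.00303; they were singled out after their values were seen.

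Receptors were the group of the pathway with the most genes higher in tumors, and also the one with the most genes tested. Of 19 receptors and co-receptors 16 passed the filter. Of these 10 were higher, against 28.8% of all genes tested, and 5 lower, against 31.7%. Their median log2 fold change was 1.07, against -0.02 over all genes tested. Fzd9, a Frizzled receptor, rose from 0.217 ± 0.0567 to 11.1 ± 6.68 FPKM (SD, n = 3), a log2 fold change of 5.25 (limma adjusted p = 0.000246). Ptk7, a co-receptor of planar cell polarity, rose from 8.92 ± 3.46 to 41.8 ± 2.01 FPKM (SD, n = 3), a log2 fold change of 2.29 (adjusted p = 0.000318). Fzd4, which is abundant in vessels and fat, fell from 30.6 ± 5.19 to 2.33 ± 0.445 FPKM (SD, n = 3), a log2 fold change of -3.70 (adjusted p = 2.3e-05). All 6 endothelial markers were lower as well, with sums of 156.8 to 188.3 in Normal and 21.0 to 37.2 in Tumor samples, and their part in the fall of Fzd4 was not tested.

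Lef1, one of the factors that carry beta-catenin to DNA, showed the greatest difference among the members. It was at 20.2, 27.5 and 18.1 FPKM in Normal and at 0.773, 0.288 and 0.456 in Tumor samples. Every normal sample was above every tumor by a wide gap. The log2 fold change was -5.43 (SE 0.36, limma adjusted p = 3.7e-05), and the call held in all 12 alternatives. Tcf7, its relative, fell in the same way from 68.1 ± 7.06 to 4.20 ± 2.40 FPKM (SD, n = 3), a log2 fold change of -4.16 (adjusted p = 0.000114).

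Both Lef1 and Tcf7 are also well known as genes of T cells. All 5 T cell markers were lower in the tumors, and Cd3e was at 48.9, 55.1 and 45.1 FPKM in Normal and at 0.130, 0.153 and 0.170 in Tumor samples. The part of T cells in the levels of Lef1 and Tcf7 was not tested. For the other 2 factors of the family the log2 fold changes were 0.79 and -0.72: Tcf7l2 was at 7.05 ± 1.24 in Normal and 12.5 ± 4.12 in Tumor samples (adjusted p = 0.031), and Tcf7l1 at 11.3 ± 0.793 and 7.25 ± 2.97 FPKM (SD, n = 3; limma adjusted p = 0.0559).

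Axin2, a scaffold of the destruction complex, is the most widely used reporter gene of beta-catenin activity. Its FPKM was 9.20, 8.83 and 7.65 in Normal and 0.662, 7.40 and 0.132 in Tumor samples. Tumor 2 lay just under the normal range, while Tumors 1 and 3 were more than 10 times lower. The log2 fold change of -3.18 had a 95% interval of -6.02 to -0.34 and an adjusted p of 0.0536, just past the threshold of 0.05. Without Tumor 2 it was -4.67, with an adjusted p of 0.000907 in a range of 0.000907 to 0.12 over the alternatives, 5 of which called it.

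Counting the groups that did not overlap, 2 of the 9 members that passed the filter lay wholly higher in tumors, against 33.1% of all genes tested, and 4 lay wholly lower, against 35.8%. The 4 were Wnt10a, Wnt11, Axin2 and Lef1.

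**Figure D3:**
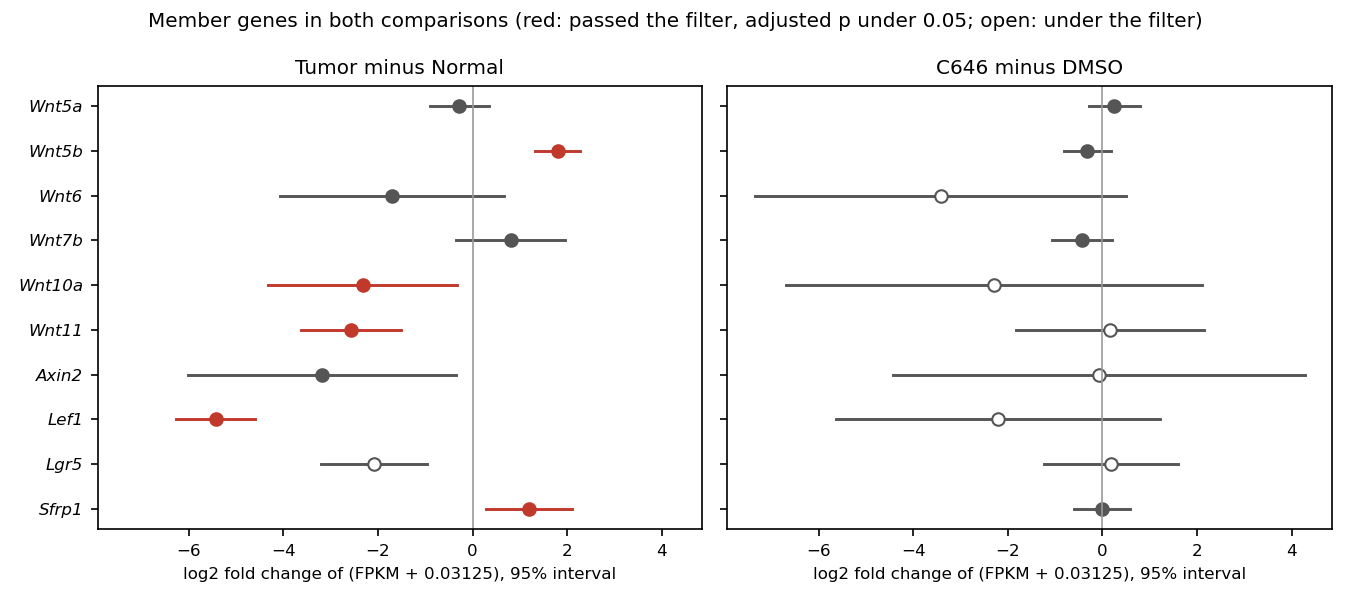
Log2 fold change of FPKM + 0.03125 with its 95% interval for the 10 members, Tumor minus Normal on the left and C646 minus DMSO on the right; red marks members that passed the filter with adjusted p under 0.05, and open circles mark members under the filter. On the left Wnt5b and Sfrp1 lie right of 0 and Wnt10a, Wnt11 and Lef1 left of it, and on the right all 10 intervals cross 0.

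The target genes were called in both directions, as were all genes tested, 28.8% of them higher and 31.7% lower. Of 15 listed targets of beta-catenin 11 passed the filter, 5 were higher in tumors and 4 lower. Their median log2 fold change was -0.21, against -0.02 over all genes tested. Apcdd1, a feedback inhibitor at the membrane, fell from 23.5 ± 3.18 to 1.57 ± 1.05 FPKM (SD, n = 3), a log2 fold change of -4.08 (limma adjusted p = 0.00024). Tnfrsf19, a receptor of the tumor necrosis factor family, rose from 0.961 ± 0.119 to 6.89 ± 4.07 FPKM (SD, n = 3), a log2 fold change of 2.65 (adjusted p = 0.00104).

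Inside the cell, 2 of 13 transducers tested were higher and 3 lower, against 28.8% and 31.7% of all genes tested. Ctnnb1, which encodes beta-catenin, rose from 189.0 ± 26.0 to 299.0 ± 12.6 FPKM (SD, n = 3), a log2 fold change of 0.67 (limma adjusted p = 0.00721). Dvl1, which relays the signal from Frizzled, rose from 24.6 ± 1.36 to 47.1 ± 2.43 FPKM (SD, n = 3), a log2 fold change of 0.94 (adjusted p = 0.000492). Apc, of the destruction complex, fell from 5.33 ± 0.164 to 3.29 ± 0.679 FPKM (SD, n = 3), a log2 fold change of -0.71 (adjusted p = 0.0171). Of the 12 TCF/LEF factors and nuclear partners tested, 4 were higher and 3 lower, against the same shares of all genes. Among the higher were the co-repressor Tle2 with a log2 fold change of 2.21 (limma adjusted p = 0.000305) and the beta-catenin inhibitor Ctnnbip1 with 1.60 (adjusted p = 0.000105). Among the 3 genes for Wnt release and R-spondins that passed, Rspo1, a ligand of the Lgr receptors, was lower, from 12.7 ± 9.42 to 0.430 ± 0.402 FPKM (SD, n = 3; log2 fold change -4.92, adjusted p = 0.00147).

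The second comparison asked whether C646 changed these genes in tumors. No member was called by limma, and no gene at all of the 12083 tested was called in either direction (0% higher, 0% lower), while 384 genes (3.18%) had an unadjusted p under 0.05, none of them a member. Only Wnt5a, Wnt5b, Wnt7b and Sfrp1 passed the filter here. The other 6 members were low in most injected tumors, and for 4 of them the same DMSO tumor was at least 2 times above the rest.

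Wnt5b was at 25.6, 30.0 and 43.6 FPKM in DMSO and at 24.8, 28.1 and 24.9 in C646 tumors. DMSO 3 was the highest, and the other 5 tumors lay close together. Between the groups the log2 fold change was -0.32 with a 95% interval of -0.80 to 0.17 (limma adjusted p = 0.99), and without DMSO 3 it was -0.10. These tables hold 2 rows named Wnt5b, which were summed, and the higher row alone gave -0.31.

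Wnt5a was at 6.44, 8.17 and 11.4 FPKM in DMSO and at 11.2, 9.96 and 8.99 in C646 tumors, with groups that overlapped. The log2 fold change was 0.25 (95% interval -0.29 to 0.79, limma adjusted p = 0.99). Wnt7b was at 3.41, 4.14 and 3.52 in DMSO and at 1.99, 2.96 and 3.40 in C646 tumors. The highest C646 tumor lay just under the lowest DMSO tumor, so that 1 of the 4 members tested lay wholly lower, against 4.52% of all genes tested, and none lay wholly higher, against 4.04%. The log2 fold change of Wnt7b was -0.43 (95% interval -1.06 to 0.20, adjusted p = 0.99). Sfrp1 was at 8.96, 8.54 and 8.57 in DMSO and at 12.6, 8.08 and 6.38 in C646 tumors. The C646 values surrounded the DMSO values, and the log2 fold change was -0.01 (95% interval -0.60 to 0.59, adjusted p = 0.999).

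For the 6 members under the filter the fit without a filter gave no call, and its fold changes depend on the 0.03125 FPKM added to each value. Wnt11 was at 0.175, 0.452 and 1.90 FPKM in DMSO and at 0.811, 0.413 and 0.695 in C646 tumors, with overlap (log2 fold change 0.17, 95% interval -1.82 to 2.16). Lgr5 was at 0.152, 0.388 and 0.522 in DMSO and at 0.304, 0.436 and 0.369 in C646 tumors (0.19, 95% interval -1.23 to 1.60). Lef1 was at 0.644, 0.0521 and 1.00 in DMSO, and at 0.580 in C646 1 and listed at 0 in C646 2 and C646 3 (-2.20, 95% interval -5.62 to 1.22). Both groups of Lef1 were far from the levels of normal tissue, and with values this low no difference was detectable.

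Wnt6, Wnt10a and Axin2 were each high in DMSO 3 and low in the other 5 injected tumors. Wnt6 was at 0.126, 0.342 and 14.3 FPKM in DMSO, and in C646 tumors it was listed at 0, then at 0.102 and 0.134. Wnt10a was listed at 0, then at 0.246 and 4.73, in DMSO, and at 0, 0.328 and 0 in C646 tumors. Axin2 was at 0.286, 0.0578 and 21.7 in DMSO and at 0.617, 0.614 and 1.22 in C646 tumors. The log2 fold changes were -3.42 (95% interval -7.35 to 0.50), -2.29 (-6.70 to 2.11) and -0.08 (-4.43 to 4.27), all with limma adjusted p of 0.925 or more. Without DMSO 3 they were -1.46, -0.40 and 2.26, so that Axin2 turned its direction, with adjusted p of 0.734, 0.962 and 0.734 in ranges reaching 1 over the alternatives.

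The level of Wnt6 in DMSO 3 was 42.0 times that of the next highest injected tumor. The ratio was 14.4 for Wnt10a, 17.8 for Axin2 and 2.34 for Wnt11, and 1.56, 1.45, 1.20 and 1.01 for Lef1, Wnt5b, Lgr5 and Wnt5a. For Wnt7b and Sfrp1 another injected tumor was higher, and the ratios were 0.85 and 0.682. DMSO 3 was singled out after its values were seen, so these ratios are a description with no test. Of the 9 members at 1 FPKM or more in DMSO 3, 4 were at least 2 times above all other injected tumors, against 3.23% of the 12181 genes at that level. Wnt6, Wnt10a and Wnt11 reached 1 FPKM in no other injected tumor. They are counted only through DMSO 3 itself, so nothing is concluded from this share. DMSO 1, with 3.39%, held a like number of such genes and none of the members, but only 4 members were at 1 FPKM or more there.

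Other genes of the canonical branch were high in the same tumor. Of 15 listed targets, 8 were at least 2 times above the other 5 injected tumors: Axin2, Tcf7, Nkd1, Nkd2, Sp5, Znrf3, Apcdd1 and Notum. Of all genes at 1 FPKM or more in DMSO 3, 3.23% were. Nkd1, Sp5 and Notum reached 1 FPKM in no other injected tumor and are counted only through DMSO 3. Nothing is concluded from this count. Notum, an enzyme that strips the lipid from Wnt ligands, was at 3.59 FPKM in DMSO 3 and at most 0.137 in the others. Apcdd1 was at 20.4 against at most 1.20, the feedback inhibitor Nkd1 at 5.67 against at most 0.453, and Tcf7 at 17.8 against at most 3.56. The 7 targets that were not so high included Myc at 61.9 against at most 41.8 and Lef1 at 1.00 against at most 0.644. The ligand Wnt10b was at 2.53 against at most 0.325, and the receptor Fzd10 at 3.64 against at most 0.315.

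In DMSO 3, 3 of 7 markers of basal mammary cells were at least 2 times above the other injected tumors. Of the 12181 genes at 1 FPKM or more there, 3.23% were. The tumor was singled out after its values were seen, so this is a description with no test. Krt5 was at 229.0 FPKM against 8.01 to 35.2 in the other injected tumors, Krt17 at 92.2 against 5.16 to 14.7, and Trp63, the basal transcription factor, at 15.4 against 2.67 to 7.65. The 7 basal and myoepithelial markers measured there summed to 363.3 in DMSO 3 and to 39.6 to 73.0 in the others. Acta2, Myh11, Cnn1 and Oxtr, the markers of contractile myoepithelial cells, were not at least 2 times higher in DMSO 3. The Krt14 gene was not analysed here in injected tumors. Some markers of other cells stood high as well. The 6 endothelial markers summed to 57.8 against 30.5 to 40.2 in the other injected tumors, with Cldn5 at 9.73 against at most 4.43. Kdr, at 2.19 against 1.83 to 3.24, and Tek, at 0.608 against 0.523 to 1.64, lay among the others. Ly6a of the hormone-sensing list was at 71.8 against at most 29.6. Esr1, Pgr, Prlr and Foxa1 of that list were instead lowest in DMSO 3. They were at 1.44, 0, 4.57 and 0.114 against at least 1.56, 0.135, 7.82 and 0.211. Tnfsf11, at 0.212 against at most 0.227, was not highest there. Skeletal muscle markers summed to 333.9 in DMSO 3, against 0.774 in DMSO 1 and 1.69 in DMSO 2. Their sums were alike in C646 1 and C646 3, at 337.5 and 308.6, and low in C646 2, at 1.97. The part of these cell types in the levels of Wnt6, Wnt10a and Axin2 was not tested.

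Among the untreated tumors, Tumor 2 was high in the same 3 members. It held 11.4 times the Wnt6, 7.47 times the Wnt10a and 11.2 times the Axin2 of the next highest untreated tumor, while Wnt11 and Lef1 were lowest in Tumor 2. Wnt6, Wnt10a and Axin2 were 3 of its 7 members at 1 FPKM or more, against 2.08% of 11853 genes. All 3 reached 1 FPKM in no other untreated tumor, so they are counted only through Tumor 2 itself. Again there was no test, because Tumor 2 was singled out after its values were seen. Of the 15 targets Axin2, Nkd1, Apcdd1 and Tnfrsf19 were at least 2 times higher in Tumor 2, and Sp5 and Notum, both under 1 FPKM, were highest there at 0.303 and 0.597. Nkd1, at 1.16 against at most 0.546, is also counted only through Tumor 2. Of the 8 basal markers none was at least 2 times higher in Tumor 2, although Krt5 was highest there, at 79.4 against 35.7 and 55.7. Krt14, at 121.6 against at most 112.3, and Krt17, at 28.6 against at most 20.7, were highest there too. Acta2, Myh11, Cnn1, Oxtr and Trp63 were higher in another untreated tumor, and Oxtr was lowest in Tumor 2. Wif1 and Sostdc1, both secreted inhibitors, were at least 2 times above the other tumors in Tumor 2 and in DMSO 3 alike.

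**Figure D4:**
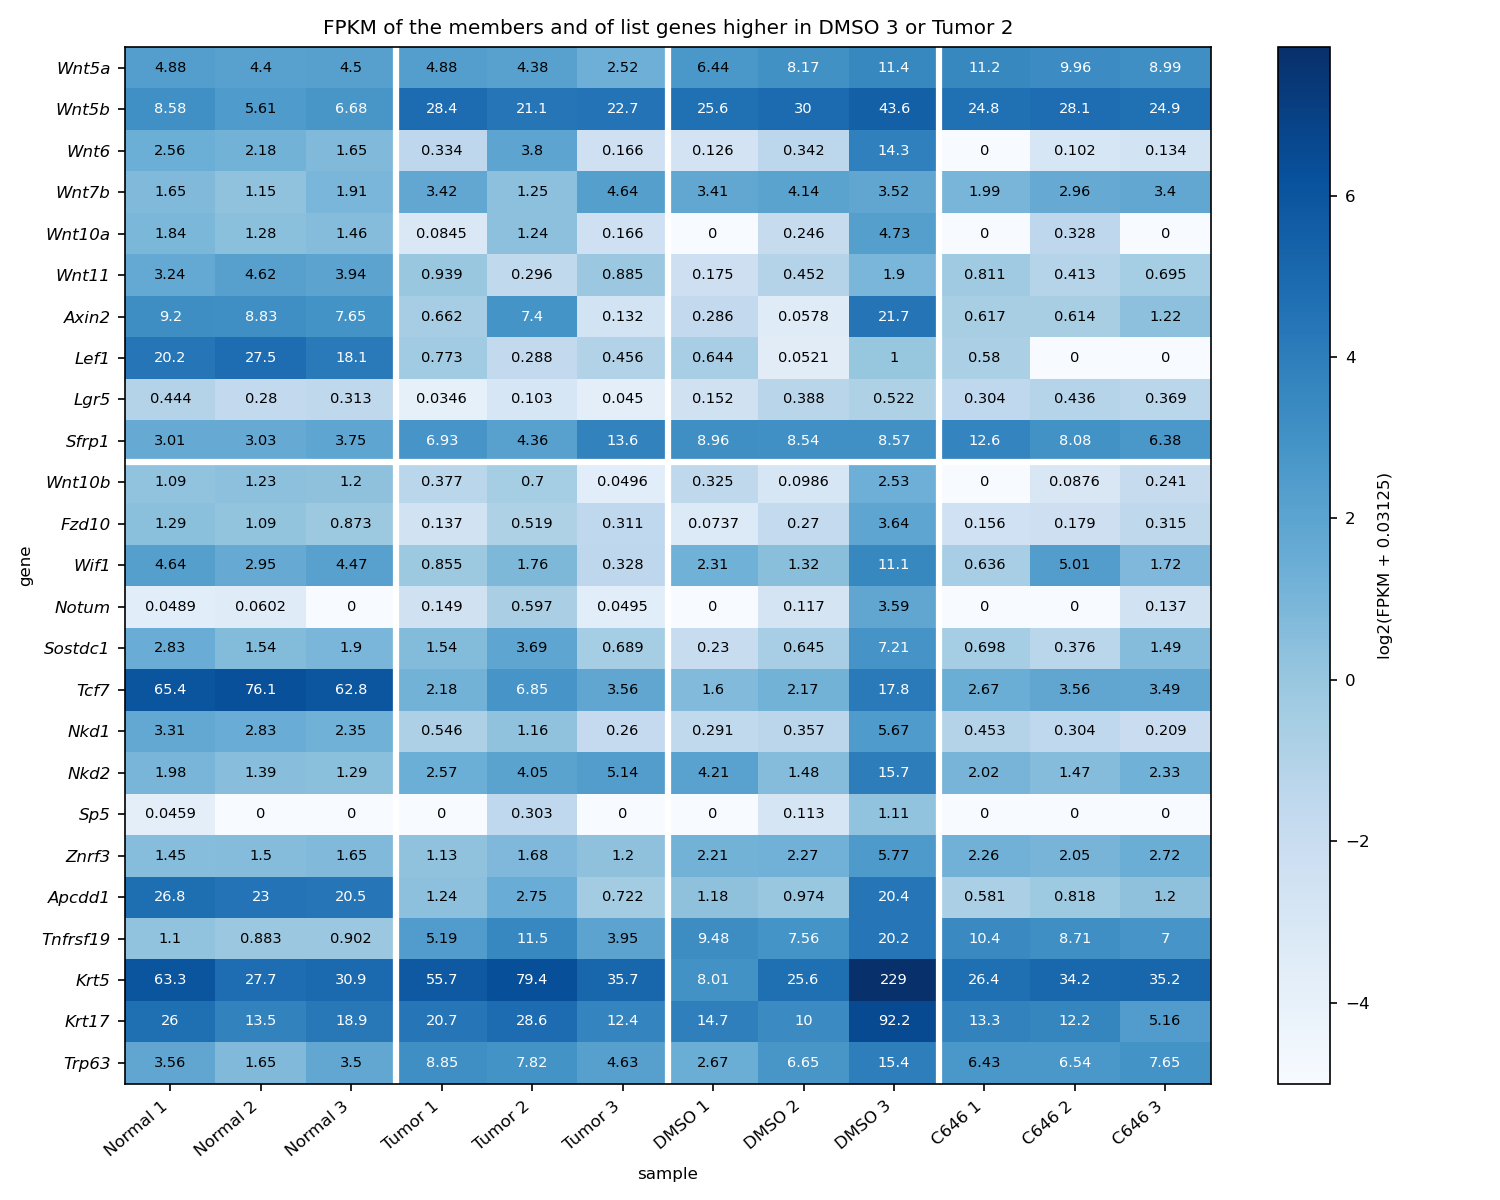
FPKM, printed in each cell and coloured by log2(FPKM + 0.03125), of the 10 members (above the white line) and of listed pathway genes and basal markers at least 2 times higher in DMSO 3 or Tumor 2, in the 12 samples. The column of DMSO 3 is dark for Wnt6 (14.3), Axin2 (21.7), Apcdd1 (20.4) and Krt5 (229), and Tumor 2 is darker than Tumors 1 and 3 for Wnt6 (3.80) and Axin2 (7.40).

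Of the genes around Wnt6 and Wnt10a, those expressed in the injected tumors did not share the high level of DMSO 3. A window reaching 100000 bases to either side of the pair held 9 coding genes with the pair itself. Of the others, Cyp27a1 was at 1.61 FPKM in DMSO 3 and at 1.59 to 4.74 in the other injected tumors, and Ttll4 was at 7.36 against 5.77 to 8.08. Prkag3, Cdk5r2, Fev and Cryba2 were listed at 0 in DMSO 3 and were at most at 0.226 in the other injected tumors. Being nearly silent in all of these tumors, they cannot show whether a high level was shared. Cfap65 was not analysed here.

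The sequences just before the start sites of Axin2, Wnt6 and Wnt11 are shown because these members stood high in DMSO 3. They were read from RefSeq on GRCm38.p6, whose promoter windows were given for 5 of the 10 members, among them neither Wnt10a nor Wnt5a. Each run gives the 250 bases before the start, 5′ to 3′ on the strand of the gene. The core of the site that TCF/LEF factors bind, CTTTGA or its reverse complement TCAAAG, was searched on both strands, and a match stands in capitals. Wnt11 has a window at another start too, which is not printed. The windows shown lie on the plus strand at chr11:108920099-108920348 for Axin2, chr1:74771642-74771891 for Wnt6 and chr7:98834862-98835111 for Wnt11.
Axin2: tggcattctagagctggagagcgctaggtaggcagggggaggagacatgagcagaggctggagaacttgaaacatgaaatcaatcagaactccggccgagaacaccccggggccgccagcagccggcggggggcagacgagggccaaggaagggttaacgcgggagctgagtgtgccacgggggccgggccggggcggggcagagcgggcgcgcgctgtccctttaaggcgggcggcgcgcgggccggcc
Wnt6: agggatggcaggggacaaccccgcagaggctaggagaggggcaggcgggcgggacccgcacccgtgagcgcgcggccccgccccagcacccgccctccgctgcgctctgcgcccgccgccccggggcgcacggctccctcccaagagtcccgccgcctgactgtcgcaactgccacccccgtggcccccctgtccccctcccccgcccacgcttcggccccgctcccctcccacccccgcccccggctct
Wnt11: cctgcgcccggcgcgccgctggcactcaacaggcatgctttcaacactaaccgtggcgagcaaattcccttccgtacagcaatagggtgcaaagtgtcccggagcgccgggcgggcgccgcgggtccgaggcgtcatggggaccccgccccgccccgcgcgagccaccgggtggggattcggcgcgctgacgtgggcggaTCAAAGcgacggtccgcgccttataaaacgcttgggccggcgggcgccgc

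The Wnt11 window shown held 1 match, at base 201, the other Wnt11 window held none, and the Axin2 and Wnt6 windows held none. Over all 32817 windows 13.8% held a match, and of the 11 windows of the 5 members 3 did, including an alternative start of Wnt5b and one of Lef1. Guanine and cytosine made up 69.2% of the Axin2 window, 79.6% of the Wnt6 window and 70.8% and 56.8% of the Wnt11 window shown and the other, against a median of 52.4% over all windows. The absence of a match says only that these letters are not in this window.

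In both comparisons the genes for Wnt release were measured next to the ligands. Porcn adds the lipid to Wnt proteins and Wls carries them to the cell surface. Porcn was at 6.30, 4.32 and 10.6 FPKM in DMSO and at 2.58, 2.99 and 3.68 in C646 tumors, and Wls was at 59.1, 58.6 and 56.8 in DMSO and at 41.5, 47.4 and 46.7 in C646 tumors. Every C646 tumor was below every DMSO tumor for both. The log2 fold changes were -1.11 (SE 0.34) and -0.37 (SE 0.11) with unadjusted p of 0.0148 and 0.0131, but limma adjusted p was 0.99 for each. They were singled out after their values were seen. Between Normal and Tumor neither was called, with adjusted p of 0.29 for Porcn and 0.285 for Wls.

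None of the 7 pathway lists held a call between C646 and DMSO. The median log2 fold change was -0.10 for the 4 ligands tested, -0.74 for Porcn and Wls as the 2 tested genes of Wnt release and R-spondins, -0.02 for the 16 receptors, 0.26 for the 5 inhibitors, 0.04 for the 12 transducers, 0.13 for the 11 TCF/LEF factors and partners and -0.31 for the 9 targets, against -0.01 over all genes tested. Adipocyte markers stood apart between these groups, since all 6 tested had an unadjusted p under 0.05, with summed levels of 17.9 to 76.9 FPKM in DMSO and 101.5 to 599.4 in C646 tumors. Their part in the members' values was not tested.

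Seen across the 4 groups, with no test between the experiments because their tables differ in their rows, the order of the members changed from Normal to the tumors. In Normal samples Lef1 had the highest mean FPKM at 21.9, followed by Axin2 at 8.56 and Wnt5b at 6.95, whose ranges overlapped, and then by Wnt5a at 4.59, Wnt11 at 3.93 and Sfrp1 at 3.26, each overlapping the next. In Tumor, DMSO and C646 samples alike Wnt5b came first, with means of 24.1, 33.1 and 25.9, and did not overlap the next gene. Sfrp1 and Wnt5a followed with overlapping ranges, at 8.30 and 3.93 in Tumor, 8.69 and 8.65 in DMSO, and 9.01 and 10.1 in C646 samples. Lgr5, at 0.346 in Normal, 0.0608 in Tumor, 0.354 in DMSO and 0.370 in C646 samples, came last in Normal, Tumor and DMSO, while in C646 samples Lef1, Wnt10a and Wnt6 were lower still.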

How the data were processed

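RNA-seq was analysed in 12 samples of 4 groups, and groups were taken from the sample labels. Per the submitters' processing notes, the authors used TopHat2 2.1.1 and Cufflinks 2.2.1 on mm10, and they deposited 1 table of gene names with FPKM values per sample. Read numbers are not in the tables, so the depth is unknown. Among low values, steps worth 1 read put the depth of the injected tumors at 0.924 to 1.29 times that of DMSO 1. The Normal and Tumor tables have 26220 rows and the others 24304. Rows without a gene name (1837 in Normal and Tumor tables, 3.41% to 4.56% of FPKM) were left out, and rows of 1 name were summed.

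The tool limma 3.58.1 (R 4.3.3; lmFit and eBayes, with a trend of the variance) was run on log2(FPKM + 0.03125), a scale that understates the change of low genes, over genes that reached 1 FPKM in 3 or more samples of a comparison, and p was adjusted by Benjamini-Hochberg over all genes tested, with a threshold of 0.05. Members under the filter were read from a fit without it and from a two-sided exact permutation test. The fit was tested on simulated data. Besides the members, up to 3 genes per pathway list with the greatest change among those called and not overlapping were named; any further gene was named after its values were seen. The members and lists were chosen with earlier results of these data known. The result of 1 marker list is not reported here. Ccnd1 and Pdgfra were not analysed here, nor Gsk3a and Krt14 in injected tumors. Replicates were separate samples, 3 per group, and p-values measure the spread between them. Positions of genes were read from GENCODE vM21, whose build GRCm38 is that of mm10. Figures were drawn with matplotlib 3.10.9 in Python 3.11.15. The alternatives were other values added before the logarithm (0.25 and 1 FPKM), no filter, median ratio scaling, quantile normalization, a replicate block, and leaving out each sample.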

Additional observations from a re-analysis of the deposited data

How the results depend on the processing

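Between Tumor and Normal, Wnt5b, Wnt11 and Lef1 kept their calls in all 12 alternatives. Over the 55 member values from alternatives with all samples, 46 kept their direction and side of the threshold, 3 lost a call (Wnt10a without a filter, under quantile normalization and with the replicate block), 5 gained one (Axin2 in 4 alternatives, Wnt7b under quantile normalization) and 1 reversed: Wnt5a, at 0.14 under quantile normalization, which moved the median of all genes from -0.02 to 0.10. Leaving out 1 sample, for which the genes tested with all samples were kept, gave 1 to 3 members called higher and 2 to 5 called lower, and put Wnt5a between -0.46 and 0.0108 (without Tumor 3). Without Tumor 2 the 5 members called lower were Wnt6, Wnt10a, Wnt11, Axin2 and Lef1. The cause was not tested.

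Between C646 and DMSO no member was called in any alternative. The number of genes called lower was 0 to 11 with 1 sample left out, the 11 without DMSO 2, and the number called higher was 0 throughout. Sfrp1 reversed its sign to 0.0001 with 1 FPKM added and to 0.0092 under median ratio scaling, and lay between -0.27 and 0.21 with 1 sample left out. In fits without a filter that left out 1 sample, added after seeing the data for members under the filter, Wnt11 lay between -0.58 and 1.04 (-0.0227 without C646 1), Axin2 between -1.70 and 2.26 (0.0803 and 0.084 without C646 1 and 2), and Lgr5 between -0.28 and 0.52. The sum of the Wnt5b rows against the higher row was also added after seeing the data.

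Same-numbered samples of Tumor and Normal did not deviate together in every pair (r = -0.0384, -0.0982 and 0.0104). Those of C646 and DMSO did so weakly in every pair (r = 0.175, 0.0699 and 0.109), against -0.234 to 0.141 for different numbers. The study describes no pairing of replicates, so the replicate block was an alternative only. With it, 3439 genes were called higher and 3827 lower in tumors, against 3758 and 4128 without it, and 0 with C646. The number of samples, 3 per group, and the unknown read depth limit what can be detected for members under 1 FPKM.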
